A study of Homo sapiens with 6 samples.

Results

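Interferon-stimulated effector genes were followed in the ovarian cancer line SK-OV3 (human) after transfection of siRNA against the lncRNA PVT1. The group holds 47 genes, fixed by symbol and found by matching those symbols to the table of 59653 genes. The genes were chosen with earlier results of these data known. All 47 had a row, and all 47 had enough counts to enter the comparison, as did 19008 genes in all. Both groups were SK-OV3 cells with the genotype given as wildtype, transfected for 48 h with 50 nM of pooled siRNA and Lipofectamine RNAiMAX in full serum medium. The siPVT1 group (3 libraries) received a mixture of 4 siRNAs against human PVT1, and the siControl group (3 libraries) received a non-targeting pool. With 1 cell line and 1 pool against PVT1, effects of lowering PVT1 and other effects of that pool cannot be told apart. Untransfected cells and cells given interferon were not analysed here. The labels name replicates and do not say whether they were separate cultures, so the p-values measure the spread between these samples, which may be technical.

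Interferons are secreted proteins that a cell makes when its sensors meet viral RNA or stray DNA. Type I and type III interferons act through receptors, the kinases JAK1 and TYK2 and the factor ISGF3, which binds a DNA element called the interferon-stimulated response element (ISRE). The genes switched on in this way encode the proteins that do the antiviral work, and several of them are also direct targets of the sensor-driven factors IRF3 and IRF7. Interferon gamma acts through another element, the gamma-activated site (GAS), and is the stronger inducer of the GBP genes.

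To show how these genes are marked at their starts, the RefSeq promoter table (GRCh38.p14, 250 bases before to 50 after each start) was searched on both strands for an ISRE core, written GAAANNGAAA. Of the 47 members 36 were in the table. The core was present in 26 of the 36 (72.2%), against 4.38% of the 27305 genes of the table. A GAS core, written TTCNNNGAA, was present in 10 of the 36 (27.8%), against 9.38% of all genes. The ISRE core stood in 17 of the 21 matched members that rose in siPVT1 by the thresholds given below and in 9 of the 15 others. Of the matched members that rose, IFITM1, RSAD2, BST2 and CMPK2 entered the test only through siPVT1, so a filter on low counts set part of this split. IFITM1, RSAD2 and BST2 hold the core and CMPK2 does not. A match is a description of the letters and not a bound site. IFIT2, OAS2, OASL, MX2, IFITM2, USP18, PARP10, GBP2, TRIM22, APOL1 and APOL6 were not in the table. The windows below are 30 bases long, run 5′ to 3′ on the strand named, and carry the ISRE core in capitals. They are shown because IFIT1, ISG15, IFI27, IFITM1 and GBP4 rose in siPVT1, while IFIT5 and the pair PARP9 and DTX3L did not pass the thresholds and GBP1 fell.
IFIT1 (chr10:89392497-89392526, minus strand): accgaaagggGAAAGTGAAActaaagctag
ISG15 (chr1:1013380-1013409, plus strand): tcgggaaaggGAAACCGAAActgaagccaa
IFI27 (chr14:94110631-94110660, plus strand): cggtttcctgGAAAATGAAAcctatctcat
IFITM1 (chr11:314024-314053, plus strand): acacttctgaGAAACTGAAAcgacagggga
GBP4 (chr1:89198927-89198956, plus strand): tgtgagaaccGAAATTGAAAggacatgcac
GBP1 (chr1:89065316-89065345, plus strand): agagtaatatGAAACTGAAAgtacttcgtt
IFIT5 (chr10:89414554-89414583, minus strand): cgagcgctcaGAAACTGAAActtaagaaat
PARP9 and DTX3L (chr3:122564322-122564351, plus strand): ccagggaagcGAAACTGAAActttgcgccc

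The libraries held between 28383171 and 35059576 counts, and the 47 members together took 0.118% to 0.119% of the counts in siControl and 0.180% to 0.203% in siPVT1. Normalized counts of PVT1, the targeted RNA, in the order of replicates 1, 2 and 3, an order kept for all values, were 3298, 4090 and 3377 (siControl) and 2350, 2111 and 2062 (siPVT1). The log2 fold change of PVT1 was -0.72 (SE 0.097, edgeR adjusted p = 0.000342). By the thresholds given below, PVT1 passed the adjusted p and not the fold threshold. Of 8 epithelial and ovarian carcinoma markers, KRT7, KRT8, KRT18, PAX8 and ERBB2 had mean normalized counts from 1249 to 8575 in siControl, and MUC16 (442), KRT19 (256) and EPCAM (96.7) were lower. Of these KRT19 rose in siPVT1 (log2 fold change 2.30), and the adjusted p alone was passed by PAX8 (just under the fold threshold), KRT8 and KRT18 (higher) and by KRT7 and ERBB2 (lower). The leukocyte marker PTPRC was at or under 2.02 normalized counts in every library, and CD3E, MS4A1 and FCGR3A were at 0. CD14 was low and fell, from 9.52, 6.06 and 7.39 in siControl to 3.34, 2.19 and 2.82 in siPVT1. Its log2 fold change was -1.42 (edgeR adjusted p = 0.0241), and it entered the test only through siControl. The summed leukocyte markers ranged from 13.9 to 258 in siControl, the highest value coming from LYZ in siControl replicate 2, and from 16.0 to 88.5 in siPVT1. The summed stromal and endothelial markers, mostly CDH5, moved with the groups, from 2147 to 2186 in siControl and from 8906 to 11182 in siPVT1, and their part in the results was not tested. The share of mitochondrial counts was 5.26% to 5.81% in siControl and 5.75% to 7.0% in siPVT1.

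A gene was said to rise or fall if edgeR's quasi-likelihood test gave a Benjamini-Hochberg adjusted p under 0.05 over all 19008 genes and the log2 fold change was at least 1 in size. Of the 47 members 26 rose in siPVT1 (55.3%) and 1 fell (2.13%). Over all genes tested 11.8% rose and 9.64% fell by the same rule. The members were chosen with earlier results of these data known. Their shares and median beside those of all genes are therefore a description with no test. A further 14 members passed the adjusted p with a smaller change, 9 of them higher and 5 lower in siPVT1, and 6 did not pass it. The filter on low counts was met in siControl alone by 42 of the 47, of which 21 rose. The other 5 (MX2, IFITM1, RSAD2, CMPK2 and BST2) entered the test only through the siPVT1 libraries, where they are high, so that their direction is in part set by the filter. The median log2 fold change of the members was 1.30, beside 0.00 over all genes tested, and the range was -1.82 (GBP1) to 5.19 (IFI27). Every siPVT1 library lay above every siControl library in 35 members, as it did in 33.2% of all genes, and below in 7, against 32.3% of all genes. For a single gene with 3 libraries against 3, the two-sided exact permutation test cannot go below p = 0.1, which is the value of each of these 42 members. Scaling by the total count in place of TMM moved the median of all genes to -0.15 and turned the split of all calls from 55.1% higher to 43.8% higher, while 26 members rose and 1 fell with that scaling too. In a bulk RNA sample, a change in RNA per cell and a change in the number of cells making it cannot be told apart.

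**Figure D1:**
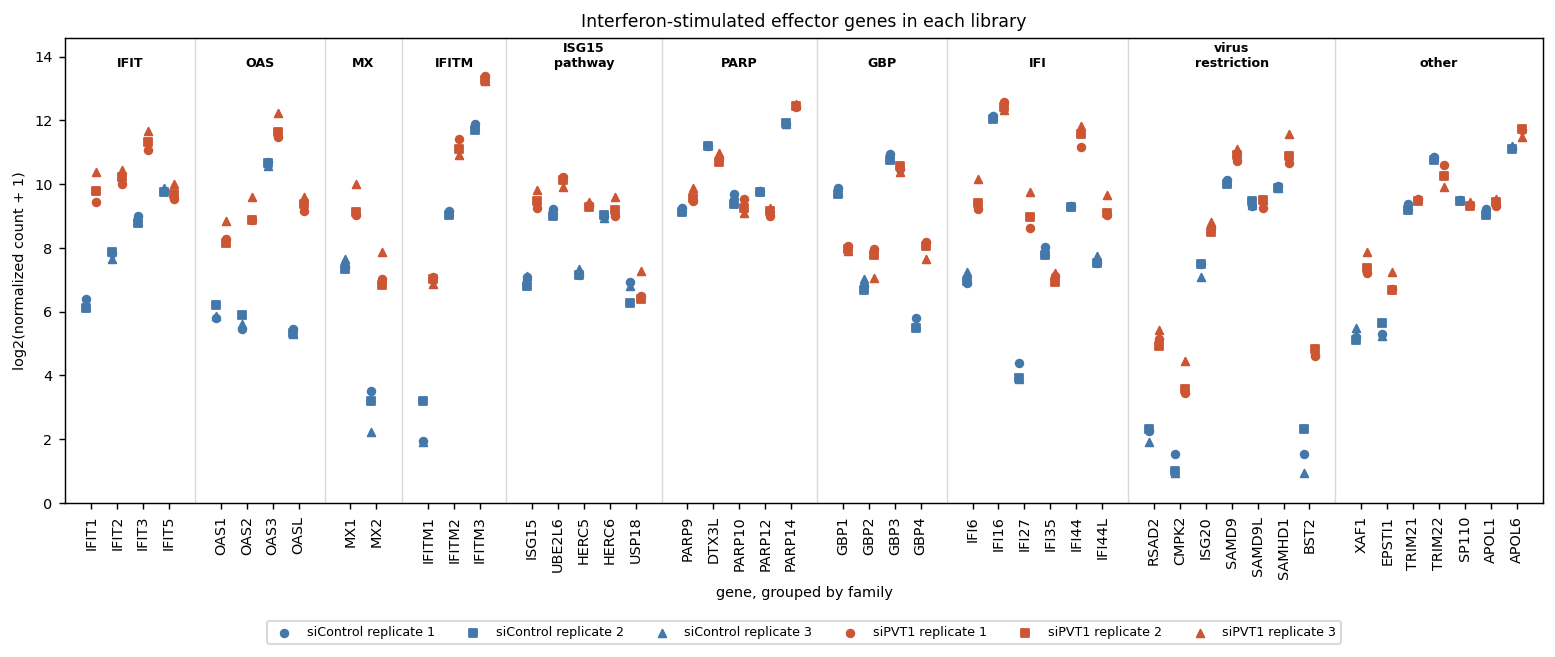
Normalized count of each of the 47 members on a log2 scale after adding 1 (vertical axis), grouped by family (horizontal axis), with 1 point per library, siControl in blue and siPVT1 in red. The siPVT1 points lie above all siControl points in 35 genes, from IFIT1 to APOL6, and below them in 7, among them GBP1, DTX3L and PARP12.

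The IFIT genes encode proteins that bind viral RNA and stop its translation, and lie side by side on chromosome 10 (IFIT2, IFIT3, IFIT1 and IFIT5 between 89283694 and 89421605, GENCODE v44, GRCh38). IFIT1, IFIT2 and IFIT3 rose and IFIT5 did not. IFIT1 had 82.8, 68.7 and 72.1 normalized counts in siControl and 698, 887 and 1327 in siPVT1. The mean went from 74.5 ± 7.40 to 971 ± 322 (SD, n = 3 each), and the fitted log2 fold change was 3.70 (standard error, SE, 0.25, edgeR adjusted p = 1.05e-05), the largest of the family. IFIT3, which joins IFIT1 and IFIT2 in a complex, had 517, 435 and 444 in siControl and 2141, 2575 and 3253 in siPVT1, the highest siPVT1 mean of the family (log2 fold change 2.51, SE 0.16, edgeR adjusted p = 7.06e-06). All siPVT1 libraries of both genes lay above the siControl range, and siPVT1 replicate 3 was the highest. IFIT2 had 227, 231 and 200 in siControl and 1033, 1196 and 1395 in siPVT1, a log2 fold change of 2.46. IFIT5, a close relative that also binds RNA, had 888, 858 and 935 in siControl and 738, 825 and 1025 in siPVT1. Its groups overlapped, with a log2 fold change of -0.05 (SE 0.12, edgeR adjusted p = 0.746), 0.04 without siPVT1 replicate 1, although its promoter window held 3 ISRE cores. The log2 ratio of IFIT1 to IFIT5 within a library was -3.57 ± 0.14 in siControl and 0.13 ± 0.23 in siPVT1 (SD, n = 3 each, two-sided exact permutation p = 0.1, the smallest possible).

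OAS enzymes sense double-stranded RNA and make oligoadenylates that activate RNase L, and OASL, which lacks that activity, strengthens signalling by the RNA sensor RIG-I. All 4 genes of the group rose. OASL had 42.9, 39.4 and 38.8 normalized counts in siControl and 575, 661 and 774 in siPVT1 (means 40.3 ± 2.19 and 670.0 ± 100.1, SD, n = 3 each), and its fitted log2 fold change was 4.05 (SE 0.15, edgeR adjusted p = 7.92e-07). OAS3, the highest of them per kilobase of transcript in both groups, had 1664, 1611 and 1531 in siControl and 2829, 3198 and 4824 in siPVT1, a log2 fold change of 1.18 (SE 0.18, edgeR adjusted p = 0.000706). The siPVT1 values of OAS3 differed by more than those of OASL, and without siPVT1 replicate 3 its log2 fold change was 0.90, under the fold threshold. OAS1 had 55.2, 72.7 and 57.3 in siControl and 312, 285 and 462 in siPVT1, a log2 fold change of 2.52. OAS2 had 42.9, 58.6 and 48.0 in siControl and 473, 469 and 769.6 in siPVT1, a log2 fold change of 3.52. OAS1, OAS3 and OAS2 are neighbours on chromosome 12 (112905856 to 113011723), and the gene between the other two had the smallest change of the 3 and the highest level.

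MX1 and MX2 encode dynamin-like GTPases that restrict virus replication, MX1 in the cytoplasm and MX2 near the nuclear pore. Both rose. MX1 had 170, 161 and 201 normalized counts in siControl and 528, 556 and 1033 in siPVT1 (log2 fold change 2.0, SE 0.26, edgeR adjusted p = 0.00032). MX2 was low in siControl, with 10.5, 8.08 and 3.69, and reached 128, 113 and 233 in siPVT1 (log2 fold change 4.40, SE 0.42, edgeR adjusted p = 5.42e-05). MX2 met the filter on low counts only through siPVT1, so its direction is in part set by the filter. The siPVT1 replicate 3 library held the highest value of both genes.

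IFITM proteins sit in membranes and block the fusion of entering viruses. All 3 members of this family rose, and IFITM3 was the highest of the 47 per kilobase of transcript in both groups. It had 3797, 3311 and 3636 normalized counts in siControl and 10774, 9930 and 9681 in siPVT1 (means 3581 ± 248 and 10128 ± 573, SD, n = 3 each), and its fitted log2 fold change was 1.5 (SE 0.074, edgeR adjusted p = 2.48e-06). IFITM1 had few counts in siControl and more in siPVT1, with 2.86, 8.08 and 2.77 in siControl and 134, 130 and 117 in siPVT1 (log2 fold change 4.78, SE 0.32, edgeR adjusted p = 9.34e-06). IFITM1 met the filter on low counts only through siPVT1, so its direction is in part set by the filter. IFITM2 had 565, 520 and 572 in siControl and 2736, 2193 and 1911 in siPVT1, a log2 fold change of 2.04. In this family siPVT1 replicate 1 was the highest library and replicate 3 the lowest for each gene. The 3 genes lie together on chromosome 11 (303655 to 329475) and resemble each other, so counts could be divided between them. Of the 75-base stretches of the canonical transcript, 52.2% in IFITM1, 12.5% in IFITM3 and 7.08% in IFITM2 also occurred in transcripts of other genes. For IFITM1 and IFITM2 the gene that shared most was ENSG00000288681, which overlaps IFITM1 by 351 exonic bases on the same strand. Reads assigned to that gene are not part of the sum of the 3 IFITM genes. The summed normalized counts of the 3 IFITM genes went from 4138 ± 270.1 to 12535 ± 998 (SD, n = 3 each), 3.03 times the siControl mean.

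ISG15 is a ubiquitin-like protein that is attached to other proteins by the activating enzyme UBA7, the conjugating enzyme UBE2L6 and the ligase HERC5, and is removed by USP18, which also damps the type I interferon receptor. ISG15 and HERC5 rose. ISG15 had 134, 111 and 138 normalized counts in siControl and 606, 711 and 895 in siPVT1 (means 128 ± 14.4 and 738 ± 147, SD, n = 3 each, fitted log2 fold change 2.53, SE 0.16, edgeR adjusted p = 8.48e-06). UBE2L6 had 598, 508 and 578 in siControl and 1206, 1122 and 963 in siPVT1. Its log2 fold change of 0.96 (SE 0.11, edgeR adjusted p = 0.000111) was just under the fold threshold, and it passed at 1.01 without siControl replicate 1 and at 1.04 without siPVT1 replicate 3. HERC5 had 140, 141 and 163 in siControl and 653, 625 and 693 in siPVT1, a log2 fold change of 2.15. The neighbouring HERC6 on chromosome 4 had 511, 521 and 485 in siControl and 509, 581 and 773 in siPVT1, a log2 fold change of 0.30 (edgeR adjusted p = 0.113). USP18 had 121, 76.8 and 112 in siControl and 89.1, 83.0 and 154 in siPVT1, and its groups overlapped. The log2 fold change of USP18 was 0.08 (SE 0.27, edgeR adjusted p = 0.815), and its sign turned with scaling by the total count (-0.0645), without siControl replicate 2 (-0.09) and without siPVT1 replicate 3 (-0.28). Of the 75-base stretches of USP18 43.7% occur in other genes, most of all ENSG00000288811, then USP41 and ENSG00000290950. USP41 had at most 7.52 normalized counts in any library, and counts of the other genes are not given here, so divided reads remain possible. UBA7, which completes the pathway and is not a member, rose with a log2 fold change of 1.32.

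The PARP group joins ADP-ribose to proteins, and DTX3L is the ubiquitin ligase that pairs with PARP9. None of the 5 genes passed the fold threshold. PARP14, the highest of them per kilobase in both groups, had 3810, 3853 and 3814 normalized counts in siControl and 5535, 5589 and 5794 in siPVT1 (log2 fold change 0.56, SE 0.052, edgeR adjusted p = 5.04e-05). PARP12 had 885, 859 and 876 in siControl and 510.0, 574 and 603 in siPVT1 (log2 fold change -0.63, SE 0.082, edgeR adjusted p = 0.000283). Their groups did not overlap and the directions were opposite. PARP9 had 614, 564 and 612 in siControl and 712, 755 and 949 in siPVT1, a log2 fold change of 0.43 (edgeR adjusted p = 0.0118, and 0.0543 with scaling by the total count). DTX3L had 2373, 2371 and 2402 in siControl and 1786, 1668 and 2001 in siPVT1, a log2 fold change of -0.39 (edgeR adjusted p = 0.0026). These genes are read in opposite directions from overlapping starts on chromosome 3 and share the ISRE core printed above, and 139 of their exonic bases overlap on opposite strands. The log2 ratio of PARP9 to DTX3L was -1.997 ± 0.065 in siControl and -1.18 ± 0.13 in siPVT1 (SD, n = 3 each, two-sided exact permutation p = 0.1, the smallest possible). PARP10 had 825, 668 and 814 in siControl and 736, 610 and 551 in siPVT1, with overlapping groups and a log2 fold change of -0.28 (edgeR adjusted p = 0.0889).

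Guanylate-binding proteins are large GTPases that coat pathogen vacuoles and bacteria, and the 4 members form 1 cluster on the minus strand of chromosome 1 (89006679 to 89198942). They did not move together. GBP1 was the only member of the 47 that fell, from 943, 821 and 868 normalized counts in siControl to 264, 247 and 237 in siPVT1 (means 877 ± 61.2 and 249 ± 13.7, SD, n = 3 each, fitted log2 fold change -1.82, SE 0.089, edgeR adjusted p = 2.46e-06). GBP4 rose, from 54.3, 43.4 and 47.1 to 292, 263 and 200.1 (log2 fold change 2.38, SE 0.18, edgeR adjusted p = 1.62e-05). The log2 ratio of GBP4 to GBP1, by normalized counts, was -4.16 ± 0.060 in siControl and 0.00 ± 0.21 in siPVT1 (SD, n = 3 each). Their counts, far apart in siControl, were thus alike in siPVT1. Per kilobase of transcript GBP1 stayed above GBP4 in siPVT1 (86.4 ± 4.76 and 41.0 ± 7.64, SD, n = 3 each). GBP3, the highest of them per kilobase in both groups, had 1977, 1749.8 and 1829 in siControl and 1435, 1513 and 1348 in siPVT1 (log2 fold change -0.37, SE 0.074, edgeR adjusted p = 0.00291). GBP2 had 110, 102 and 129 in siControl and 252, 221 and 132 in siPVT1 (log2 fold change 0.82, SE 0.23, edgeR adjusted p = 0.0159), and it passed the fold threshold at 1.03 without siPVT1 replicate 3. It missed the adjusted p without siControl replicate 1 (0.0541), siControl replicate 2 (0.0639) or siPVT1 replicate 2 (0.0623). Each of the 4 genes was lowest in siPVT1 replicate 3 among the siPVT1 libraries. GBP5, a relative that is not a member, rose from 77.1, 89.9 and 88.7 to 473, 570.4 and 510.2, a log2 fold change of 2.60. Of the 75-base stretches of GBP1 5.52% occur in other genes, mainly GBP1P1 and GBP3, and GBP1P1 had at most 0.94 normalized counts.

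The genes named IFI share a name and not a fold. IFI27, a mitochondrial protein gene, had the highest fitted change of the 47 members with all libraries, from 20, 14.1 and 13.9 normalized counts in siControl to 396, 496 and 869 in siPVT1 (means 16.0 ± 3.47 and 587 ± 249, SD, n = 3 each, fitted log2 fold change 5.19, SE 0.37, edgeR adjusted p = 1.35e-05). IFITM1 was above IFI27 without siControl replicate 2 (5.43 and 5.12) and without siPVT1 replicate 3 (4.82 and 4.78), so their order rests on single libraries. IFI16, a nuclear DNA sensor and the highest of the group per kilobase in both groups, had 4463, 4230 and 4551 in siControl and 6054, 5497 and 5133 in siPVT1 (log2 fold change 0.33, SE 0.073, edgeR adjusted p = 0.00478). IFI16 and IFI27 had groups that did not overlap, and only IFI27 passed the fold threshold. IFI6, which guards the endoplasmic reticulum against virus replication, had 118, 123 and 151 in siControl and 592, 686 and 1141 in siPVT1, a log2 fold change of 2.62. IFI44 had 639, 627 and 630.0 in siControl and 2319, 3036 and 3657 in siPVT1, a log2 fold change of 2.25. IFI44L, its neighbour on chromosome 1, had 182, 184 and 214 in siControl and 522, 545 and 805 in siPVT1, a log2 fold change of 1.69. These 3 genes rose and were highest in siPVT1 replicate 3. IFI35 was lower in siPVT1, with 263, 216 and 240.2 in siControl and 137, 121 and 148 in siPVT1, a log2 fold change of -0.82 (edgeR adjusted p = 0.000596) that did not reach the fold threshold. IFI6 shares 19.2% of its 75-base stretches with LINC02574, which had at most 0.95 normalized counts in any library.

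**Figure D2:**
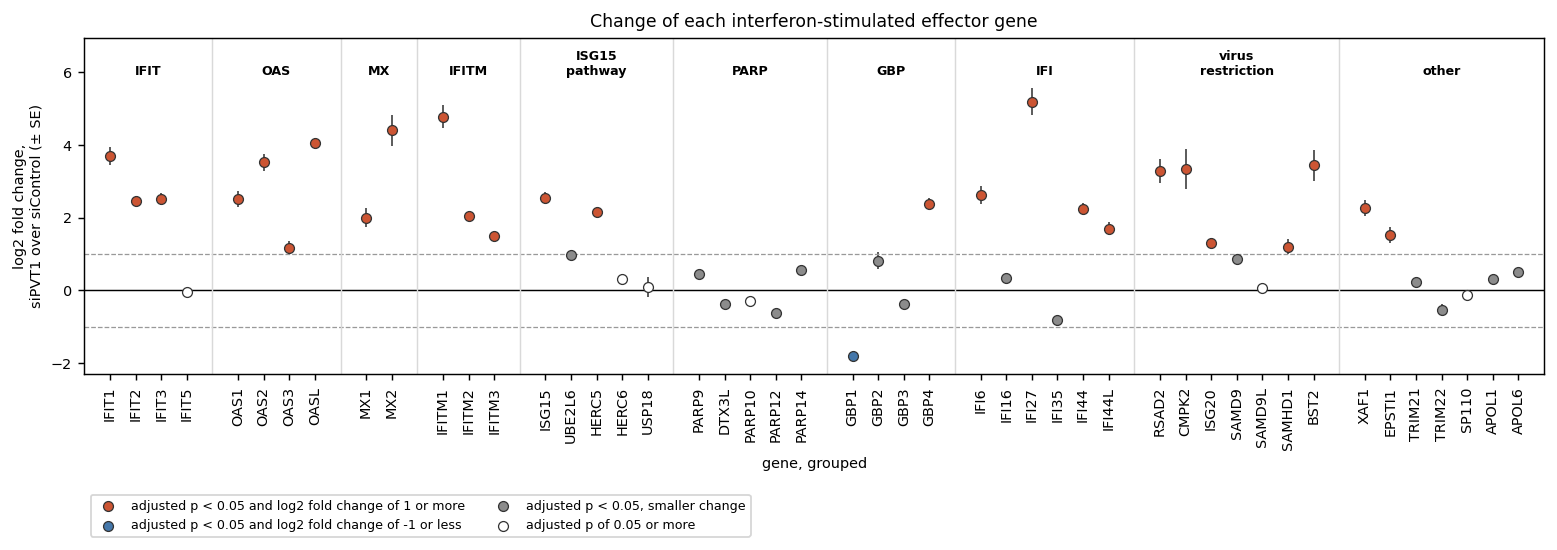
Log2 fold change of each member, siPVT1 over siControl, from edgeR (vertical axis, bars are the standard error), grouped by family (horizontal axis), with dashed lines at 1 and -1 and the colour giving the outcome of the test. The 26 red genes include all members of the OAS, MX and IFITM families, GBP1 is the single blue gene at -1.82, and no gene of the PARP family lies outside the dashed lines. Among the red genes MX2, IFITM1, RSAD2, CMPK2 and BST2 entered the test only through siPVT1.

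Of the 7 genes that restrict viruses in other ways, ISG20 and SAMHD1 rose among the 4 that met the filter in siControl, and RSAD2, CMPK2 and BST2 passed both thresholds but entered the test through siPVT1 only. RSAD2 (viperin) makes a nucleotide that ends viral RNA chains, and CMPK2, a nucleotide kinase, is read from the adjoining start on the other strand of chromosome 2. RSAD2 had 3.81, 4.04 and 2.77 normalized counts in siControl and 34.5, 29.5 and 42.3 in siPVT1. CMPK2 held 4 counts over the 3 siControl libraries and 41 over the siPVT1 libraries, a ratio of 11.1 after normalization (95% exact interval 4.03 to 42.8, which covers counting error only). Its normalized counts were 1.90, 1.01 and 0.92 in siControl and 10.02, 10.9 and 20.7 in siPVT1. Their exons overlap by 351 bases on opposite strands, and the strand setting of the counting is not given in the sources used here. BST2 (tetherin), which holds budding viruses at the cell surface, had 1.90, 4.04 and 0.92 in siControl and 23.4, 27.3 and 26.3 in siPVT1. These 3 genes were low in both groups. SAMHD1, which depletes the nucleotides needed for reverse transcription, had 974, 951 and 934 in siControl and 1638, 1873 and 3047 in siPVT1 (means 953 ± 20.2 and 2186 ± 755, SD, n = 3 each), the highest siPVT1 mean of the group. The log2 fold change of SAMHD1 was 1.20 (SE 0.21, edgeR adjusted p = 0.0014) and 0.87 without siPVT1 replicate 3. ISG20, an RNA exonuclease, had 178, 180 and 134 in siControl and 398, 365 and 444 in siPVT1, a log2 fold change of 1.30. SAMD9, which blocks translation of poxvirus RNA, had 1112, 1028 and 1072 in siControl and 1704, 1943 and 2204 in siPVT1, a log2 fold change of 0.87 (edgeR adjusted p = 0.000133). Its neighbour and relative SAMD9L had 629, 702 and 656 in siControl and 612, 728 and 725 in siPVT1, with overlapping groups. The log2 fold change of SAMD9L was 0.06 (edgeR adjusted p = 0.63), and its sign turned with scaling by the total count (-0.09).

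The remaining 7 members do not form a family, and 2 of them rose. XAF1, which promotes apoptosis, had 36.2, 33.3 and 43.4 normalized counts in siControl and 146, 164 and 236 in siPVT1 (log2 fold change 2.27, SE 0.22, edgeR adjusted p = 6.14e-05). EPSTI1 had 38.1, 49.5 and 36.9 in siControl and 105, 101 and 149 in siPVT1, a log2 fold change of 1.51. Both started from low levels. APOL6 had 2240, 2200 and 2344 in siControl and 3339, 3428 and 2859 in siPVT1 (log2 fold change 0.50, SE 0.080, edgeR adjusted p = 0.000836). APOL1, the trypanosome-killing component of human serum, had 596, 518 and 568 in siControl and 631, 696 and 739 in siPVT1, a log2 fold change of 0.30 (edgeR adjusted p = 0.0222, and 0.16 with scaling by the total count). TRIM21, a cytosolic antibody receptor, had 667, 582 and 642 in siControl and 745, 709 and 738 in siPVT1, a log2 fold change of 0.21 (edgeR adjusted p = 0.0453). TRIM21 missed the adjusted p under 9 of 12 alternatives, among them DESeq2 (0.0681), the replicate block (0.0642) and scaling by the total count (0.441). In these 3 genes the groups did not overlap, and the changes were under the fold threshold. TRIM22, a ubiquitin ligase of the same family, had 1855, 1727 and 1854 in siControl and 1550, 1228 and 969 in siPVT1, a log2 fold change of -0.54 (edgeR adjusted p = 0.0145). SP110, a nuclear body protein, had 726, 706 and 731 in siControl and 650, 630 and 690 in siPVT1, a log2 fold change of -0.13 (edgeR adjusted p = 0.14). Reads from genes that overlap on opposite strands cannot be told apart if the counting did not use strand. PARP10 shares 324 exonic bases with GRINA and SP110 shares 170 with SP140. LIPA shares 94 with IFIT3 and 65 with IFIT2. GRINA, SP140 and LIPA were expressed here, and the mean normalized counts of GRINA (4042 in siControl, 5584 in siPVT1) were above those of PARP10. The genes named on the other strand of MX1 (TMPRSS2), SAMHD1 (TLDC2) and XAF1 (PRAL) had at most 2.19 normalized counts in any library.

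The siPVT1 libraries were not alike in these genes. Among them, replicate 3 held the highest value of 32 of the 47 members (68.1%), as it did for 41.3% of all genes tested. It was highest in 4 of 4 IFIT genes, 4 of 4 OAS genes and both MX genes, and lowest in 3 of 3 IFITM genes and 4 of 4 GBP genes. The median log2 distance of the members from the mean of the siPVT1 libraries was -0.15, -0.04 and 0.18 in replicates 1, 2 and 3, where all genes gave 0.00, -0.01 and 0.01. For the members that rose, the distances were -0.23, -0.13 and 0.34. Replicate 3 also had the most counts of the 6 libraries, the largest share of mitochondrial counts and, by a small margin, the lowest normalized count of PVT1 (2062, against 2111 in replicate 2), and the part of these in the order was not tested. Without siPVT1 replicate 3 the median log2 fold change of the members was 1.03 over the 44 that could be tested, and 23 rose, of which 21 were among the 26.

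**Figure D3:**
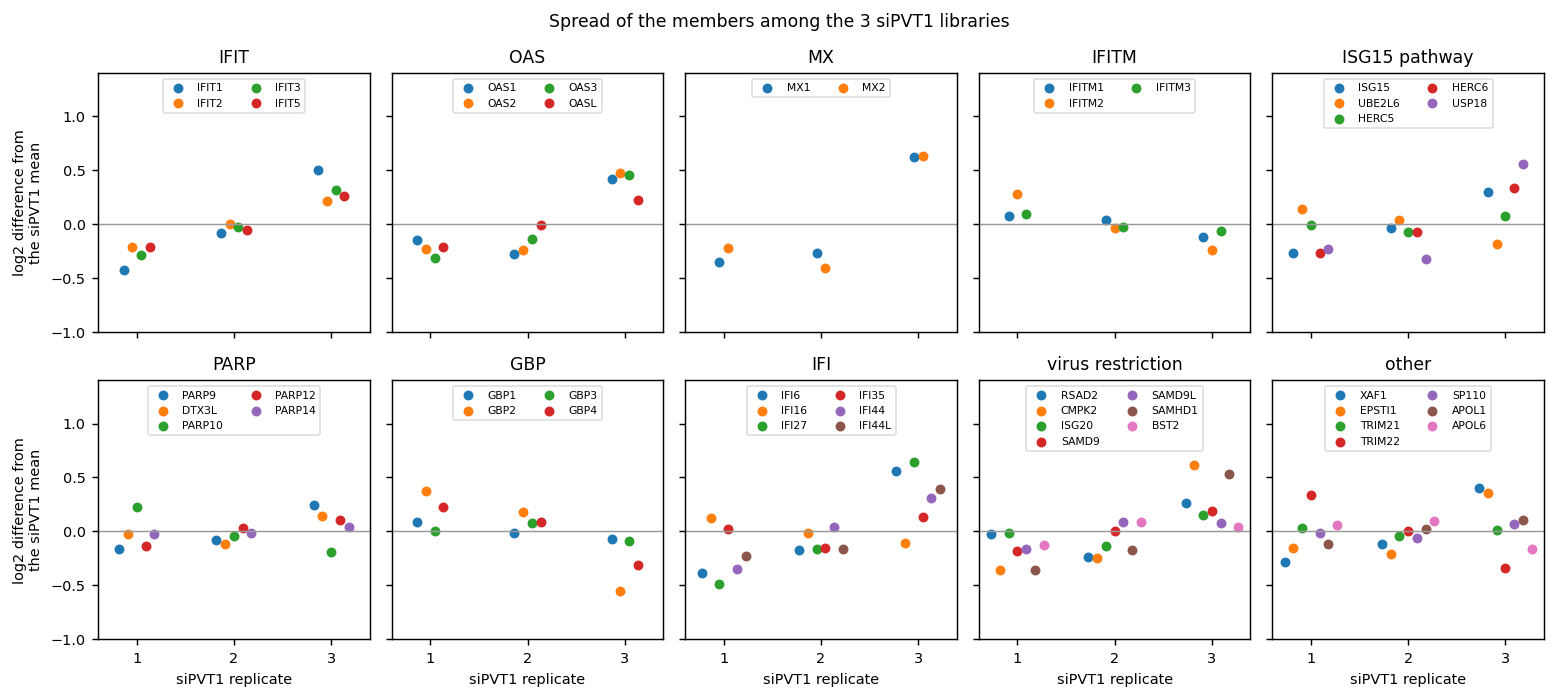
Log2 difference of each member from its own mean over the siPVT1 libraries (vertical axis) in siPVT1 replicates 1, 2 and 3 (horizontal axis), 1 panel per family and 1 colour per gene, after adding 1 to the normalized counts. The replicate 3 points lie above 0 for the 4 IFIT, 4 OAS and 2 MX genes and below 0 for the 3 IFITM and 4 GBP genes.

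Levels of different genes were compared as normalized counts per kilobase of the canonical transcript of GENCODE v44. In siControl IFITM3 was the highest, at 5861 ± 405 counts per kilobase, followed by IFI16 at 1531 ± 57.6 and TRIM22 at 627 ± 25.6 (SD, n = 3 each). TRIM22 and GBP3 (609.8 ± 38.0 counts per kilobase) differed by less than their spread. In siPVT1 the order began with IFITM3 (16580 ± 938 counts per kilobase), IFITM2 (2266 ± 417), IFI16 (1929 ± 161) and IFI44 (1786 ± 398). IFI16 differed from IFITM2 and from IFI44 by less than the larger SD of each pair. IFITM2 and IFI44 differed by more than either SD. IFI27 moved from place 36 to place 9 of the 47, ISG15 from place 20 to place 5 and GBP1 from place 11 to place 38. RSAD2 and CMPK2 stayed in the last 2 places in both groups.

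Genes that rose were mostly those with low levels in siControl. The 26 genes that rose had a median siControl level of 101 normalized counts, and the 21 others one of 769. In siPVT1 the medians were 640.5 and 731. The same contrast sets both the split and these levels, so this is a description with no test. Among the 26, MX2, IFITM1, RSAD2, CMPK2 and BST2 entered the test only through siPVT1, so the filter set part of this link. IFIT5, HERC6, SAMD9L, SP110 and PARP10, which did not pass the adjusted p, had siControl means between 506 and 894, and USP18, at 103, was the sixth.

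**Figure D4:**
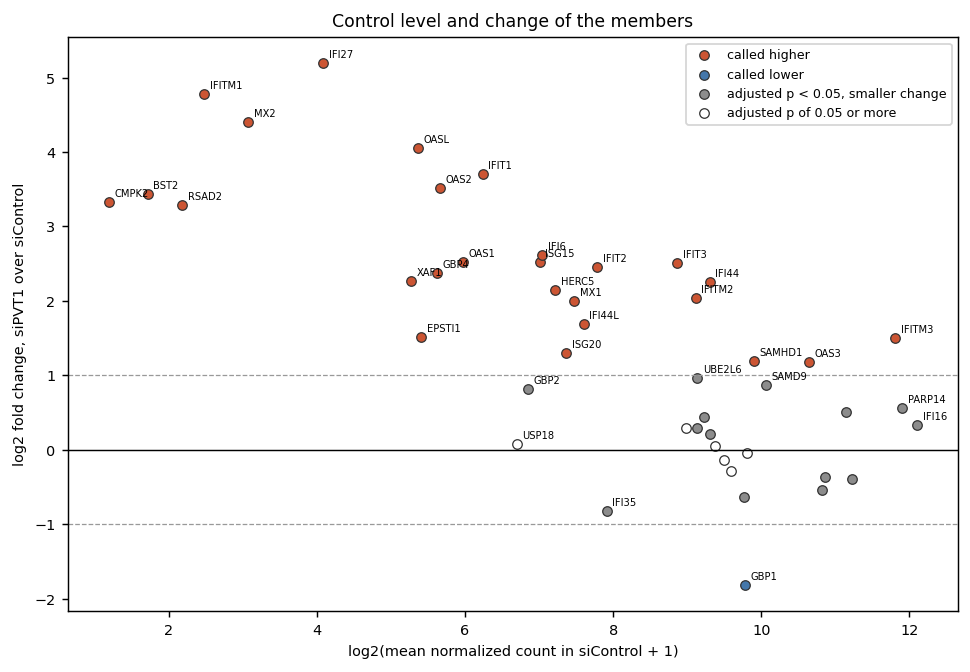
Log2 fold change of the 47 members (vertical axis) against their mean normalized count in siControl on a log2 scale after adding 1 (horizontal axis), 1 point per gene, with the colour giving the outcome of the test and labels on genes with large changes or high levels. IFI27, IFITM1, MX2, OASL, IFIT1 and OAS2, all with large changes, had siControl means of 74.5 or less, and IFITM3 stands apart as a gene of high level that rose. MX2, IFITM1, RSAD2, CMPK2 and BST2 entered the test only through siPVT1.

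The genes upstream were taken from a list of 42 sensors, signalling genes, ligands, receptors and feedback genes, of which 30 were tested. That list too was chosen with earlier results of these data known. Of these 10 rose (33.3%) and 0 fell, the latter with DESeq2 too, beside 11.8% and 9.64% of all genes tested. By the adjusted p alone 11 more were higher and 5 lower, and 6 were lower at an unadjusted p under 0.05 in edgeR. Among sensors, DDX58 (RIG-I, a sensor of viral RNA ends) had 1263, 1227 and 1235 normalized counts in siControl and 4058, 4907 and 5715 in siPVT1, a log2 fold change of 1.98. STING1, the adaptor for cytosolic DNA, had 724, 659 and 697 in siControl and 3173, 3041 and 2527 in siPVT1, a log2 fold change of 2.07. IFIH1 (MDA5) and DHX58 (LGP2) rose by log2 fold changes of 1.21 and 1.86. EIF2AK2 (PKR), with the highest normalized count among sensors in siControl, did not pass the adjusted p (log2 fold change -0.07, edgeR adjusted p = 0.373), and did with scaling by the total count (0.0116) and without siPVT1 replicate 3 (0.0236). Sensors thus differed in direction, with TLR3 at -0.79 and CGAS, the DNA sensor that feeds STING1, at -0.67, both under the fold threshold, and CGAS missed the adjusted p without siControl replicate 1 (0.0546) and without siPVT1 replicate 2 (0.0673).

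None of the 10 interferon ligand genes on the list reached the minimum for testing. IFNB1 had at most 0.95 normalized counts in siControl and 0 counts in every siPVT1 library, which allows up to 3 counts per library. IFNA1, IFNA2, IFNW1, IFNG, IFNL2 and IFNL3 were at 0 counts in all 6 libraries. IFNK and IFNL1 had 1 count in 1 library each, and IFNE, the highest, had at most 5.46 normalized counts. These values describe the RNA at 48 h only. IRF9, which is part of ISGF3, rose from 222, 223 and 255 to 581, 567 and 580 (log2 fold change 1.30, SE 0.088, edgeR adjusted p = 1.03e-05). STAT2, which binds IRF9, had a log2 fold change of 0.55, under the fold threshold. IRF7 and IRF2 rose by log2 fold changes of 1.11 and 1.30, and IRF7 was at 0.93 without siPVT1 replicate 1 and at 0.96 with scaling by the total count. JAK1, with the highest normalized count among signalling genes, had a log2 fold change of 0.52, under the fold threshold. All 6 receptor genes were higher in every siPVT1 library, as were 33.2% of all genes, and IFNGR2 and IFNLR1 passed both thresholds at 1.67 and 1.36. IFNAR1, with the highest normalized count among receptor genes, had a log2 fold change of 0.22 and missed the adjusted p with scaling by the total count (0.254), and IL10RB stood at 0.99, passing at 1.01 without siControl replicate 2 and at 1.03 without siPVT1 replicate 3. SOCS1, an inhibitor of JAK kinases, rose from 35.2, 39.4 and 36.9 to 220, 185 and 195 (log2 fold change 2.42, SE 0.14, edgeR adjusted p = 4.41e-06). ADAR, with the highest normalized count among feedback genes, had a log2 fold change of -0.15 and missed the adjusted p under 7 of 12 alternatives (highest 0.124).

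**Figure D5:**
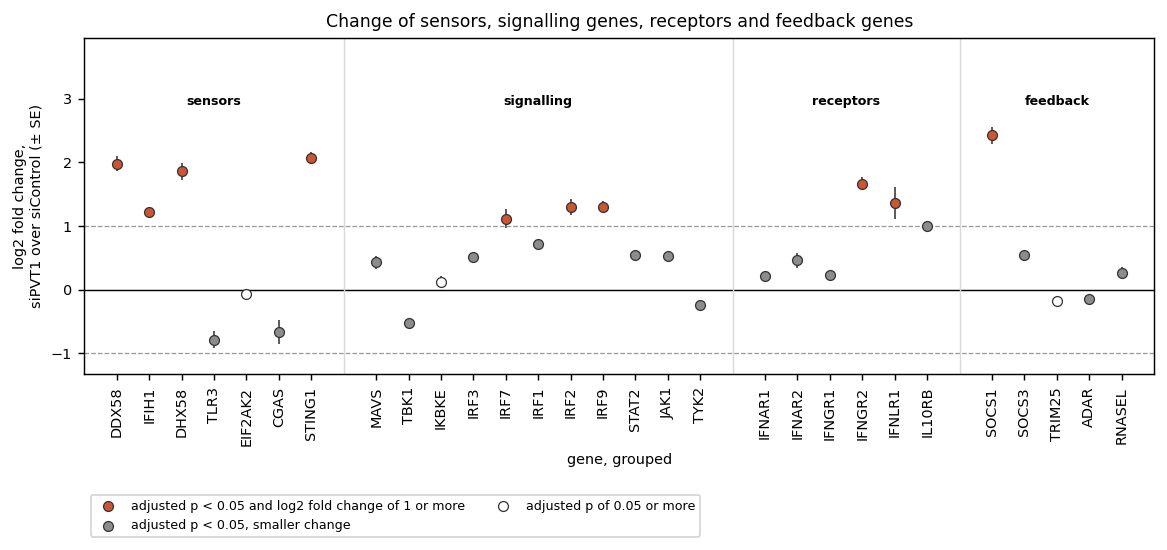
Log2 fold change, siPVT1 over siControl, of tested genes upstream of the members (vertical axis, bars are the standard error), in groups by role (horizontal axis), with dashed lines at 1 and -1. The 10 red genes passed both thresholds, among them SOCS1, STING1 and DDX58, with EIF2AK2, IKBKE and TRIM25 unfilled because they did not pass the adjusted p.

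Relatives of the members that are not on the list were counted in the same comparison. Of 32 such genes 25 were tested, 3 rose (12%), 2 fell (8%) and the median log2 fold change was 0.07. The 3 that rose were GBP5, UBA7 and HERC3 (log2 fold change 1.17), and the 2 that fell were SP140 (-1.31) and SP140L (-1.12), relatives of SP110. PARP4, the relative with the highest normalized count, had a log2 fold change of 0.11 (edgeR adjusted p = 0.0974), and -0.04 with scaling by the total count. The share of relatives that rose was near the 11.8% of all genes.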

How the data were processed

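mRNA libraries (KAPA mRNA HyperPrep) of SK-OV3 cells were sequenced by the authors as single-end reads, aligned with STAR 2.7.3a to the GENCODE transcriptome of GRCh38.p13 and counted with Salmon 0.14.1, per the labels and the methods. The deposited values are estimated counts per gene symbol, stored as whole numbers without normalization. Each column was matched to a sample by its description, and groups and replicate numbers came from the titles. The strand setting is not given in the sources used here. Totals ranged from 28383171 to 35059576 per library.

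The members and gene lists were chosen with earlier results of these data known. Counts were compared with edgeR 4.0.16 (R 4.3.3), with TMM normalization, the quasi-likelihood test and siRNA as the only term, over the 19008 genes that reached 5 normalized counts in 3 or more libraries. The SE was taken as the size of the log2 change over the root of the F statistic. All members are named, with tests for the member with the highest mean normalized count and the most changed member of each family. Other upstream genes and relatives are named if they passed both thresholds or had the highest mean normalized count of their group. EIF2AK2, TLR3, CGAS, STAT2, IL10RB and the members' other tests were added after their values were seen. No library was a duplicate of another of its group (chi-square per degree of freedom from 1.75 to 45.3). The test was run on simulated counts that had the same dispersion for every gene. That check does not cover the uneven spread among the siPVT1 libraries. Alternatives were DESeq2 1.42.0, its size factors, scaling by the total count, no filter, filterByExpr, a replicate block, each library left out, the adjusted p alone and a test against a 2-fold change. Positions and lengths came from GENCODE v44, promoter sequences from RefSeq. Some genes of the lists are counted but not reported here by name.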

Additional observations from a re-analysis of the deposited data

How the results depend on the processing

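The number of members that rose was 26 with DESeq2, with its size factors in edgeR, with scaling by the total count and without a filter, and the same 26 genes in each. It was 25 with filterByExpr, which did not test CMPK2, and 22 with a test against a 2-fold change. With 1 library left out the number lay between 23 and 27, and 1 member fell in each of these fits. Without any 1 siPVT1 library RSAD2, CMPK2 and BST2 were not tested, because fewer libraries could pass the filter. The median log2 fold change of the tested members lay between 1.03 and 1.37 with 1 library left out. Deviations of same-numbered libraries were nearly uncorrelated (-0.04, 0.03 and 0.00), and the labels do not say whether such libraries were paired. With the replicate block 26 members rose and 1 fell.

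With the adjusted p alone, 35 members were higher and 6 lower, as were 5612 and 5395 of all genes, 21 and 5 upstream genes, and 11 and 5 relatives. With the test against a 2-fold change, 1184 of all genes rose and 792 fell, 6 upstream genes and 1 relative rose and 0 relatives fell. The thresholds themselves make these differences. Signs turned for genes near 0. With scaling by the total count USP18 was at -0.0645, SAMD9L at -0.0942 and PARP4 at -0.0384. With 1 library left out IFIT5 ranged from -0.209 to 0.0371, USP18 from -0.278 to 0.230 and SAMD9L from -0.000684 to 0.118. Counts under about 5 per library, as in CMPK2, RSAD2 and BST2 of siControl, limit the precision of their folds. By the adjusted p, APOL1, GBP2, PARP9 and TRIM21 missed the threshold under some alternatives, and HERC6, IFIT5, PARP10 and SP110 passed it under some.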
